A study of Mus musculus with 6 samples.

Results

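The genes described here are 9 markers of blood monocytes in a study of mouse macrophages: Ly6c2, Plac8, F13a1, Vcan, Hp and Cd177 as markers of classical monocytes and Ace, Spn and Nr4a1 as markers of nonclassical monocytes. They were taken by symbol from a table of 52550 genes, and each symbol occurred a single time. Macrophages were grown from C57BL/6 bone marrow over 7 days in 25 ng/ml of the growth factor M-CSF, so both groups share strain, culture and growth factor. They then received medium from cultured chondrocytes that were normal (C CM, 3 samples) or apoptotic (AC CM, 3 samples), and their mRNA was sequenced. The labels give no age, no sex, no dose or time for the medium, and no way in which apoptosis was induced, and there is no group without chondrocyte medium. Whether separate mice or dishes stand behind the 3 samples of each group is not given, so the p-values reflect the spread among these libraries and that spread may be technical. Coordinates are those of the deposited table, on GRCm38.

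Monocytes leave the bone marrow in a classical form, marked in mice by the surface protein Ly6C, which enters inflamed tissue and can turn into macrophages. A part of them converts in the blood into nonclassical, Ly6C-low cells that patrol vessel walls, and this form depends on the nuclear receptor Nr4a1. In marrow cultures with M-CSF, monocytes are a stage on the path to macrophages. Several of the 9 genes are also used by other cells: Cd177 by neutrophils, Hp by hepatocytes, F13a1 by megakaryocytes and platelets, Spn by T cells, Ace by endothelium, Vcan by mesenchymal cells, and Nr4a1 as an immediate early gene in many cell types.

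Libraries held between 65630784 and 80105872 counts. Macrophage genes dominated: 12 of them (Adgre1, Cd68, Csf1r and others) summed to 27144 to 28701 CPM after C CM and 25452 to 26485 CPM after AC CM, where CPM is the count scaled to the library total. The same sum over the 6 classical monocyte markers was 367 to 431 CPM after C CM and 214 to 227 CPM after AC CM. Over the 3 nonclassical markers it was 43.6 to 52.7 and 17.7 to 20.5 CPM. Libraries AC CM 2 and 3 stood apart in hepatocyte transcripts, with 615 and 1417 CPM summed over 12 genes such as Alb, against 51.7 in AC CM 1 and 46.0, 1.68 and 0.597 in C CM 1, 2 and 3. Every count of called members below is therefore also given without those 2 libraries.

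The sequences before the start sites are shown for 5 members and Ly6c1, because they set the near-copies Ly6c2 and Ly6c1 side by side, then F13a1 and Spn, whose counts kept a nearly fixed ratio, then Vcan, whose log2 fold change had the opposite sign to the rest, and Nr4a1. Each is the 250 bases before the annotated start, 5′ to 3′ on the gene's strand, from RefSeq on GRCm38.p6, with a start within 7 bases of the deposited gene start. The windows are chr15:75111972-75112221 (minus strand) for Ly6c2, chr15:75048838-75049087 (minus) for Ly6c1, chr13:37050245-37050494 (minus) for F13a1, chr7:127137824-127138073 (minus) for Spn, chr13:89742513-89742762 (minus) for Vcan and chr15:101266596-101266845 (plus) for Nr4a1. Capitals mark matches, on either strand, to the motifs named in the next paragraph.
Ly6c2: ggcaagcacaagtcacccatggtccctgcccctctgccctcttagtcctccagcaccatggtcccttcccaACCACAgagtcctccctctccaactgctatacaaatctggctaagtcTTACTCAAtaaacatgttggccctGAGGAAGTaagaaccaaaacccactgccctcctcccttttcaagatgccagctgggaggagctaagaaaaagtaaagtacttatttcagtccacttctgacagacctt
Ly6c1: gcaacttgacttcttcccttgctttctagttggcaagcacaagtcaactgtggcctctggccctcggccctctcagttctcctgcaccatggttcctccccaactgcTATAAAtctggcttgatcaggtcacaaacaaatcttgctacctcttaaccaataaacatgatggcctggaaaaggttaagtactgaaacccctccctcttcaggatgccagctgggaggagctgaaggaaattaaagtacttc
F13a1: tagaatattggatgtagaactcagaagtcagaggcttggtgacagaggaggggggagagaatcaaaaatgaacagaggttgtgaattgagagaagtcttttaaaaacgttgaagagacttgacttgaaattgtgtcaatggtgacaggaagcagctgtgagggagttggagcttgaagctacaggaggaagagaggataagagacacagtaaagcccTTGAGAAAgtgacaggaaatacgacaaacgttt
Spn: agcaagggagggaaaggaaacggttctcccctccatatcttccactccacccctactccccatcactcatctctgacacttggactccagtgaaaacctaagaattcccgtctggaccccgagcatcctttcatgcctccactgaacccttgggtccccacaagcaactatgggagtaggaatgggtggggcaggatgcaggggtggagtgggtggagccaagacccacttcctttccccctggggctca
Vcan: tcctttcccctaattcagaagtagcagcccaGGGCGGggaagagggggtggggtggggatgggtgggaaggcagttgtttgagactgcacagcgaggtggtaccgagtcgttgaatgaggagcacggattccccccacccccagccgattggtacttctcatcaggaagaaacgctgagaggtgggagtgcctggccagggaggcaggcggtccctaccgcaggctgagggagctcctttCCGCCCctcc
Nr4a1: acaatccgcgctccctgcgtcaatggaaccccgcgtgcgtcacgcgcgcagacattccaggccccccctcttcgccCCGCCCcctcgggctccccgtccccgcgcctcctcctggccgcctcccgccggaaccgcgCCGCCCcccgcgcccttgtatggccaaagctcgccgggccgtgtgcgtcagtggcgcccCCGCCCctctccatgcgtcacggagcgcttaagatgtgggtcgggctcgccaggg

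No start window was found for Hp, so Hp was not searched for motifs. Of the motifs searched, the PU.1 site GAGGAAGT was in the Ly6c2 window at -108 to -101. No other member's window held it, while 2.44% of 32851 windows of the same length did. The C/EBP site TTNNGNAA was in 4 of the members' windows searched (Ly6c2, Plac8, F13a1 and Cd177), against 36.8% of all windows. The GC box GGGCGG was in 3 (Vcan, Ace and Nr4a1), against 32.7%. The RUNX site TGTGGT was in 2 (Ly6c2 and Plac8), against 14.0%, and the TATA box TATAAA in 2 (Cd177 and Ace), against 12.4%. None of the members' windows searched held the cyclic AMP element TGACGTCA (1.55% of all windows) or the AP-1 site TGANTCA (6.75%). Nor did any hold the NBRE AAAGGTCA (1.34%), which Nr4a1 protein binds. Matches overlapped each other in the Ace window alone, where they were GC boxes. No member's window was tested for binding, and a match describes letters only. Forms that differ from the letters given, such as TGCGTCA in the Nr4a1 window, were not searched. The Spn window held no match, and that of Nr4a1 had 74.4% G and C against a median of 52.4% over all windows.

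The contrast asks how medium of apoptotic chondrocytes changes what macrophages express, and here whether classical and nonclassical monocyte genes moved alike. After AC CM, 6 of the 9 genes fell: Plac8, F13a1 and Cd177 among the 6 classical markers and Ace, Spn and Nr4a1, all 3 nonclassical markers. By the same test no classical and no nonclassical marker rose, with Vcan the 1 member higher at an unadjusted p under 0.05; DESeq2 called 1 (Vcan) and limma-voom 0. The falls ran from 1.58-fold for Nr4a1 to 5.07-fold for Cd177. Ly6c2, Hp and Vcan did not pass edgeR's quasi-likelihood test at a Benjamini-Hochberg adjusted p under 0.05 over 17863 genes, with adjusted p between 0.0513 and 0.0662. All 9 members passed the filter on low counts. Of all genes tested, 26.5% were called, 13.3% lower and 13.3% higher. The spread after ± is an SD with n = 3, and a positive log2 fold change means more after AC CM; SE is its standard error.

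**Figure D1:**
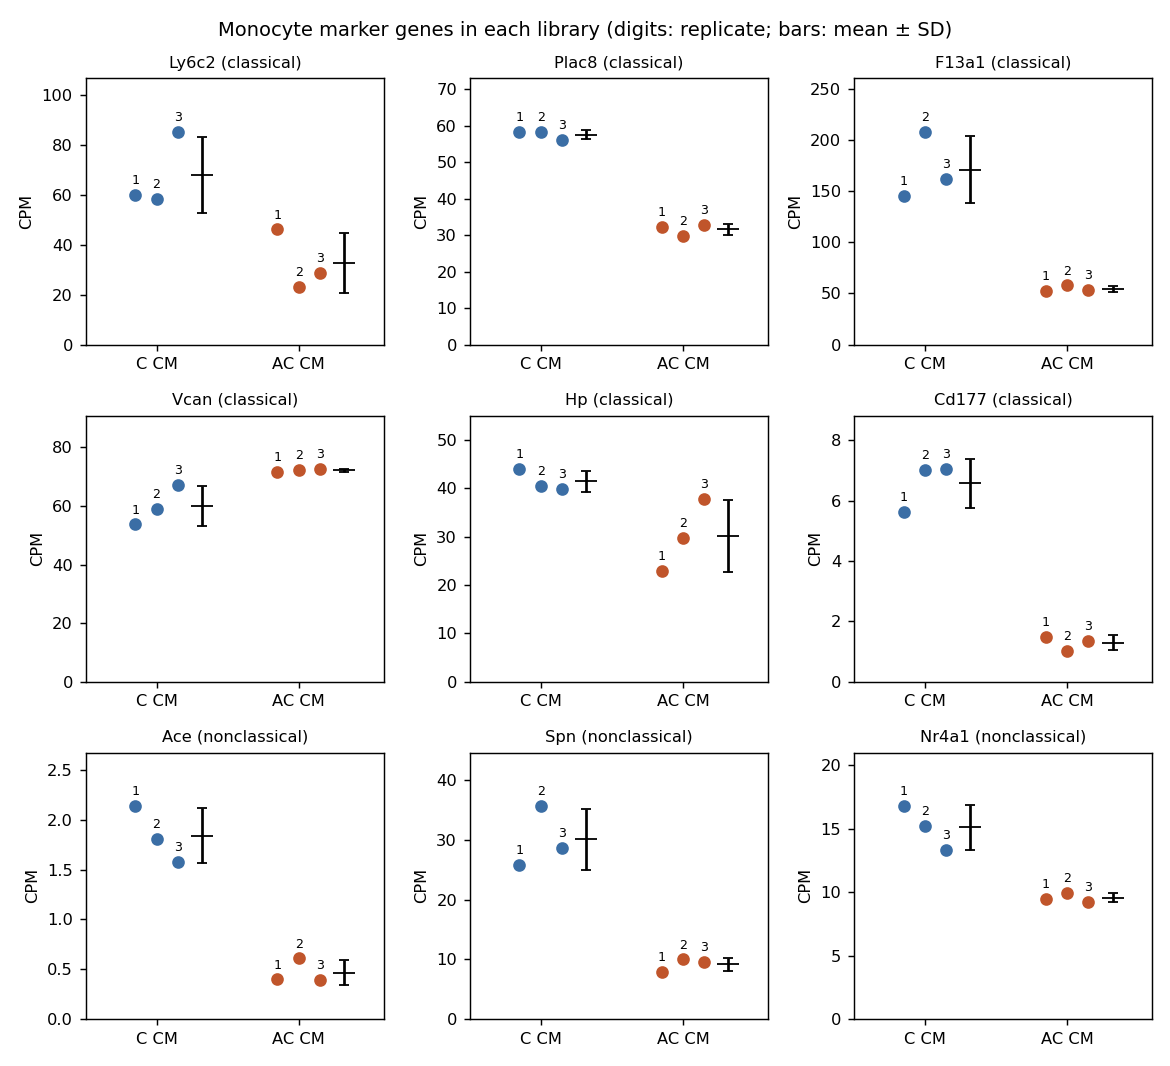
Each panel plots CPM (y axis from 0) of a monocyte marker gene in the C CM (blue) and AC CM (orange) libraries, with replicate digits and, in black, the mean ± SD of 3 libraries. The groups do not overlap in any panel; AC CM is lower in 8 panels and higher for Vcan.

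Ly6c2 (ENSMUSG00000022584.14, chromosome 15, 75108158 to 75111970, minus strand) encodes Ly6C itself, the surface protein that defines classical monocytes in mice. Its counts were 3925, 3987 and 5707 in C CM 1, 2 and 3 and 3245, 1783 and 2291 in AC CM 1, 2 and 3. All AC CM libraries were below all C CM libraries, but both groups were spread out, with C CM 3 high and AC CM 1 closest to the controls. The mean was 67.8 ± 15.1 CPM after C CM and 32.6 ± 12.0 CPM after AC CM, which put the log2 fold change at -1.06 with SE 0.30 (adjusted p = 0.0513). Without AC CM 1 it passed (-1.39, adjusted p = 0.00234), whereas AC CM 1 alone against the controls gave -0.56 (adjusted p = 0.215, in a fit that assumes that AC CM 1 varies like the C CM libraries). DESeq2 (adjusted p = 0.0130) and limma-voom (0.0124) called it as well.

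Ly6c1, the neighbour of Ly6c2 in the Ly6 cluster of chromosome 15 and a marker of endothelium and some lymphocytes, is a near-copy of it. Their longest coding transcripts are identical at 97.6% of aligned bases. Of the 50-base stretches of Ly6c2 transcripts, 14.5% occur in transcripts of another gene, mostly Ly6c1. For Ly6c1 transcripts the share is 32.8%, mostly with Ly6c2. The Ly6c2 share is over 2733 stretches pooled from 4 annotated transcripts, while its longest coding transcript has 822 bases. The share within that transcript was not computed. Reads from shared stretches may have been assigned to either gene, so both values are uncertain. Ly6c1 had 368, 362 and 258 counts after C CM and 315, 302 and 237 after AC CM, and its groups overlapped (log2 fold change -0.38, SE 0.21, adjusted p = 0.229). The ratio of Ly6c2 to Ly6c1 counts was 10.7, 11.0 and 22.1 in C CM 1, 2 and 3 and 10.3, 5.90 and 9.67 in AC CM 1, 2 and 3. In their start windows of 250 bases, the pair was identical at 171 bases, 81.4% of those aligned, with 80 gap positions not counted. The PU.1 site was in the window of Ly6c2 alone.

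Plac8 (ENSMUSG00000029322.12, chromosome 5, 100553725 to 100572245, minus strand) encodes a small cysteine-rich protein abundant in classical monocytes and granulocytes. Its counts were 3832, 3988 and 3756 after C CM and 2273, 2309 and 2617 after AC CM. The libraries of a group lay close together and the groups were far apart. It fell 1.82-fold, from 57.6 ± 1.33 to 31.6 ± 1.58 CPM (log2 fold change -0.86, SE 0.07, adjusted p = 6.53e-05).

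F13a1 (ENSMUSG00000039109.16, chromosome 13, 36867178 to 37050244, minus strand) encodes the A subunit of coagulation factor XIII, which cross-links fibrin and is made by monocytes, some macrophages and megakaryocytes. Its counts were 9505, 14220 and 10824 after C CM and 3678, 4481 and 4241 after AC CM. C CM 2 was highest, and every C CM library was far above the AC CM libraries. It fell 3.15-fold, from 171 ± 32.6 to 54.4 ± 3.06 CPM (log2 fold change -1.66, SE 0.13, adjusted p = 4.11e-05). Platelet and megakaryocyte genes moved with it in part: of 8, 5 fell and 2 rose, with Itga2b at -2.39, Ppbp at -2.24 and Gp9 at -2.36 against Pf4 at 0.64. Their summed level was 309 to 374 CPM after C CM and 484 to 516 CPM after AC CM, mostly Pf4, and none was at 0 in every library. Their part in the F13a1 value was not tested.

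Vcan (ENSMUSG00000021614.16, chromosome 13, 89655312 to 89742509, minus strand) encodes versican, a large proteoglycan that classical monocytes secrete into the matrix. Its counts were 3524, 4028 and 4511 after C CM and 5053, 5586 and 5794 after AC CM. It was the member whose AC CM libraries all lay above the C CM libraries, by a small margin, and the AC CM libraries were nearly equal in CPM. The means were 60.0 ± 6.86 and 72.2 ± 0.478 CPM (log2 fold change 0.27, SE 0.09, adjusted p = 0.0551). Without C CM 3 it passed (0.36, adjusted p = 0.0150), as it did in DESeq2 (adjusted p = 0.0330). Gm4117, which overlaps Vcan by 3050 bases on the opposite strand, had 57 to 72 counts after C CM and 117 to 151 after AC CM, and reads of the pair cannot be told apart unless strand was used in counting, which is not stated. Of 10 chondrocyte and fibroblast genes tested, 4 fell, Pdgfra at -0.72, Col1a2 at -0.41, Col1a1 at -0.52 and Col3a1 at -0.26. None rose and 6 did not pass. Of those 6, Comp (0.91), Lum (0.51), Col2a1 (0.19) and Dcn (0.11) had positive log2 fold changes. Those of Matn1 (-2.76) and Sox9 (-0.01) were negative. Over 12 such genes the summed level was 4014 to 5064 CPM after C CM and 3238 to 3338 CPM after AC CM. Most of it was Col1a1 and Col1a2, and none of the 12 was at 0 in every library. Their part in the Vcan value was not tested.

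Hp (ENSMUSG00000031722.10, chromosome 8, 109575128 to 109579172, minus strand) encodes haptoglobin, which binds free haemoglobin. It is an acute-phase protein of the liver that monocytes and granulocytes also make. Its counts were 2882, 2764 and 2667 after C CM and 1616, 2300 and 3008 after AC CM. In CPM the C CM libraries were at 44.0, 40.4 and 39.8, and the AC CM libraries at 22.9, 29.7 and 37.7, so that AC CM 3 was just below the controls. The means were 41.4 ± 2.24 and 30.1 ± 7.40 CPM (log2 fold change -0.46, SE 0.16, adjusted p = 0.0662). The order of the AC CM libraries was also that of the hepatocyte genes, which summed to 51.7, 615 and 1417 CPM in AC CM 1, 2 and 3. The C CM libraries shared their order as well, with hepatocyte sums of 46.0, 1.68 and 0.597 CPM in C CM 1, 2 and 3. The log2 fold changes of the hepatocyte genes had a median of 5.05, and 0 of the 12 passed edgeR's test, while 3 had an unadjusted p under 0.05. DESeq2 called 6 and limma-voom 0. None was at 0 in every library, and Alb alone had 2684, 36283 and 77432 counts in AC CM 1, 2 and 3 and 1972, 90 and 17 in C CM 1, 2 and 3. With AC CM 2 and 3 left out, Hp was at -0.86 and passed (adjusted p = 0.0205), in a fit where AC CM 1 stands alone and the spread comes from the C CM libraries, and without AC CM 3 it was at -0.65 (adjusted p = 0.0137). DESeq2 called Hp with all libraries (adjusted p = 0.0200). The part of hepatocyte transcripts in the Hp value was not tested.

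**Figure D2:**
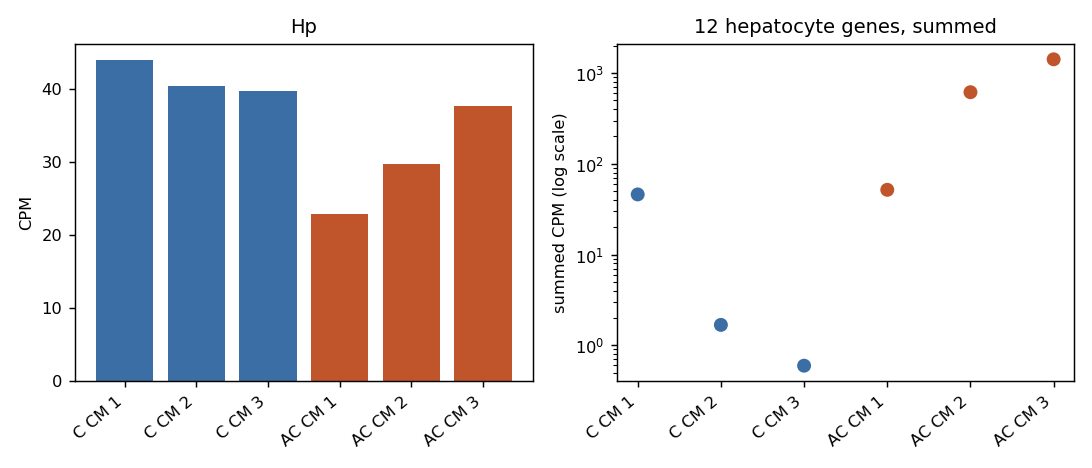
The left panel shows Hp in CPM (bars from 0) and the right panel the summed CPM of 12 hepatocyte genes on a log axis, for each C CM (blue) and AC CM (orange) library. Among the AC CM libraries both are lowest in replicate 1 (22.9 and 51.7) and highest in replicate 3 (37.7 and 1417). Among the C CM libraries both are highest in replicate 1 (44.0 and 46.0) and lowest in replicate 3 (39.8 and 0.597).

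Cd177 (ENSMUSG00000052212.6, chromosome 7, 24743983 to 24760311, minus strand) encodes a surface glycoprotein best known from neutrophils, where it binds the adhesion protein Pecam1. Its counts were 370, 481 and 473 after C CM and 106, 80 and 108 after AC CM. The groups were far apart at a low level, and the gene fell 5.07-fold, from 6.58 ± 0.810 to 1.30 ± 0.240 CPM (log2 fold change -2.34, SE 0.20, adjusted p = 7.23e-05). Neutrophil genes moved with it: of 12 tested, 10 fell, with a median log2 fold change of -2.17, beside -0.005 over all genes. Ngp was at -2.57, S100a9 at -2.51, Ltf at -2.16 and Lcn2 at -2.05, and the 13 genes of the list summed to 897 to 1031 CPM after C CM and 237 to 247 CPM after AC CM. Ly6g, the defining neutrophil marker, was too low to be tested, with 13, 21 and 9 counts after C CM and 0, 7 and 0 after AC CM. Count ratios to a pair of genes, chosen after the values were seen, differed in this. The ratio of Cd177 to S100a9 lay at 0.0232 to 0.0267 in the C CM libraries and at 0.0228 to 0.0312 in the AC CM libraries, which overlap. The ratio to Prtn3, the proteinase 3 gene, lay at 0.160 to 0.202 in the C CM libraries and lower, at 0.0928 to 0.129, in the AC CM libraries. The part of neutrophil transcripts in the Cd177 value was not tested.

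Spn (ENSMUSG00000051457.7, chromosome 7, 127132232 to 127137823, minus strand) encodes CD43, a heavily glycosylated surface protein that is high on nonclassical monocytes and on T cells. Its counts were 1690, 2442 and 1923 after C CM and 553, 772 and 761 after AC CM. C CM 2 was highest, as for F13a1, and the groups were well separated. It fell 3.29-fold, from 30.1 ± 5.10 to 9.13 ± 1.13 CPM (log2 fold change -1.72, SE 0.15, adjusted p = 7.42e-05). Of 7 T and NK cell genes tested, 6 fell: Nkg7 at -2.30, Lck at -1.97, Klrb1c at -2.68, Ncr1 at -1.70, Cd3d at -3.47 and Cd2 at -3.75. The other, Il7r, was at 0.22 and did not pass (adjusted p = 0.131 by edgeR). Cd3e and Cd3g were too low to be tested. The genes that fell were scarce, and Nkg7 was at 2.34 ± 0.245 CPM after C CM. The sum of 9 such genes was 107 to 137 CPM after C CM and 126 to 141 CPM after AC CM, mostly Il7r, and none was at 0 in every library. Their part in the Spn value was not tested.

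Ace (ENSMUSG00000020681.14, chromosome 11, 105967945 to 105989964, plus strand) encodes angiotensin-converting enzyme, a peptidase that in blood cells marks nonclassical monocytes and is otherwise high on endothelium. It was the scarcest member, with 140, 124 and 106 counts after C CM and 28, 47 and 31 after AC CM. The groups did not come near each other, though each AC CM value rests on fewer than 50 counts. It fell 3.95-fold, from 1.84 ± 0.278 to 0.465 ± 0.124 CPM (log2 fold change -1.98, SE 0.31, adjusted p = 0.00175). Of 8 endothelial genes, 7 fell and Kdr rose (1.46), with Cdh5 at -1.93, Esam at -2.07 and Cldn5 at -2.92. They summed to 74.6 to 84.2 CPM after C CM and 60.9 to 66.0 CPM after AC CM, none of them at 0 in every library. Their part in the Ace value was not tested.

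Nr4a1 (ENSMUSG00000023034.6, chromosome 15, 101266846 to 101274792, plus strand) encodes an orphan nuclear receptor needed for the survival of nonclassical monocytes. Its counts were 1103, 1040 and 890 after C CM and 668, 768 and 737 after AC CM. The AC CM libraries were close to each other and below every C CM library. It fell 1.58-fold, from 15.1 ± 1.77 to 9.55 ± 0.348 CPM (log2 fold change -0.66, SE 0.12, adjusted p = 0.00430). The call was lost with AC CM 2 and 3 left out (-0.68, adjusted p = 0.125), again with AC CM 1 alone and the spread taken from the C CM libraries. Of its family, Nr4a3 fell, from 51, 58 and 59 counts to 8, 0 and 5 (adjusted p = 0.00797), and Nr4a2 was at -0.44 (SE 0.31, adjusted p = 0.330). The 15 immediate early genes were split, with 3 higher, 4 lower and 8 short of the threshold: Fos was at 0.81 and Jun at 0.72, against Btg2 at -1.25.

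Set side by side, the log2 fold changes of both classes were negative apart from that of Vcan. The median log2 fold change was -0.96 over the 6 classical markers and -1.72 over the 3 nonclassical markers, beside -0.005 over all genes. In 8 of the 9 genes every AC CM library was below every C CM library, against 22.1% of all genes tested, and in Vcan every AC CM library was above, against 22.6%. With AC CM 2 and 3 left out, 4 classical markers (Hp in addition) and 2 nonclassical markers were called lower, among 1274 genes called in all against 4741, in the same fit with a lone AC CM library. In the authors' deposited table all 9 had an adjusted p under 0.05 (Ly6c2 0.0199, Hp 0.0317, Vcan 0.0427), as had 18.7% of the genes with a p there. In these bulk samples, fewer cells that express a gene and less of its RNA per cell cannot be told apart.

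Within a library, the count of a classical marker over that of a nonclassical marker does not depend on library size. Of the 18 such pairs, 7 ratios were higher in every AC CM library than in any C CM library, 3 were lower and 8 overlapped. How often the ratios of other gene pairs separate the groups was not computed. These counts therefore have no reference and only describe the pairs. Vcan gained on all 3 nonclassical markers: its ratio to Spn was 1.65 to 2.35 in C CM and 7.24 to 9.14 in AC CM libraries. Plac8 and Hp gained on Ace and Spn, with Plac8 over Spn at 1.63 to 2.27 and then 2.99 to 4.11. F13a1 and Spn kept nearly the same ratio in each library, 5.62, 5.82 and 5.63 in C CM 1, 2 and 3 and 6.65, 5.80 and 5.57 in AC CM 1, 2 and 3. Against Nr4a1, which fell least of the 3 nonclassical markers, F13a1 lost (8.62 to 13.7 in C CM, 5.51 to 5.83 in AC CM), as did Cd177. Which class gained differed from pair to pair. The ratios share counts across pairs and were given no test.

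Levels of different genes were compared in CPM per kilobase of the longest coding transcript, a length adopted after levels over the union of all exons had been seen. After C CM the order was Ly6c2 (82.5 ± 18.4), Plac8 (47.1 ± 1.09), F13a1 (43.4 ± 8.25), Hp (30.8 ± 1.67), Spn (8.03 ± 1.36), Nr4a1 (5.92 ± 0.694), Vcan (4.83 ± 0.552), Cd177 (2.42 ± 0.298) and Ace (0.376 ± 0.0566). Among neighbours in that order, Plac8 and F13a1 overlapped between libraries, as did Nr4a1 and Vcan. After AC CM, Ly6c2 (39.7 ± 14.6) and Plac8 (25.9 ± 1.29) were still first, followed by Hp (22.4 ± 5.51), F13a1 (13.8 ± 0.775), Vcan (5.81 ± 0.0384), Nr4a1 (3.74 ± 0.136) and Spn (2.44 ± 0.301). Cd177 (0.478 ± 0.0885) and Ace (0.0947 ± 0.0253) remained last. Plac8 and Hp overlapped there. Over the union of all exons the order after C CM was another: Plac8 led (36.2 ± 0.837), and Hp (25.8 ± 1.40), F13a1 (25.4 ± 4.84) and Ly6c2 (24.7 ± 5.51) came next within their spread. The union is 2740 bases long for Ly6c2 against 822 for its longest coding transcript, so the first place of Ly6c2 rests on the choice of length. After AC CM the union length put Plac8 (19.9 ± 0.991) and Hp (18.8 ± 4.61) before Ly6c2 (11.9 ± 4.37). By either length Ly6c2, Plac8, F13a1 and Hp were above all 3 nonclassical markers in both groups.

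Other genes of the same monocyte classes included more falls than rises. Among 8 further classical genes there were 3 falls and 5 that missed the threshold. The chemokine receptor gene Ccr2, whose product draws classical monocytes out of the marrow, fell 3.06-fold from 392 ± 51.7 to 128 ± 14.4 CPM. Chil3, a chitinase-like protein gene, was at -2.20 and Mgst1, a glutathione transferase, at -0.80. Of 14 further nonclassical genes, 9 fell, Cd36 rose and 4 did not pass. The adhesion receptor gene Adgre4 was at -2.62, the integrin gene Itgax at -1.94 and the G protein gene Gngt2 at -1.07, against the scavenger receptor gene Cd36 at 1.39. Cx3cr1, the fractalkine receptor of nonclassical monocytes, varied widely, with 1418, 6232 and 5781 counts after C CM and 2422, 3123 and 666 after AC CM (adjusted p = 0.369). Treml4 was at -0.94 (SE 0.43, adjusted p = 0.140).

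Of 15 transcription factors of monocytes, 8 fell, Maf rose and 6 did not pass. Notch2, a receptor whose signal favours the nonclassical fate and which was listed with them, was at -0.74 (SE 0.05), Irf4 at -1.31, Cebpa at -0.61 and Irf8, a factor that commits progenitors to monocytes, at -0.46. Klf4, needed to form monocytes, was at -0.11 (adjusted p = 0.691). Cebpb, needed for nonclassical monocytes to survive, was at 0.70 (SE 0.34, adjusted p = 0.205). All 8 genes of granulocyte and monocyte progenitors fell, with Mpo at -1.50, Elane at -2.32, Prtn3 at -1.71 and Kit at -2.14, and their sum went from 208 to 241 CPM in C CM libraries to 66.4 to 72.1 CPM in AC CM libraries. Of the 12 macrophage genes, 2 fell (Csf1r at -0.72, Mertk at -0.40), Mrc1 rose (0.54) and 9 did not pass, among them Adgre1 (-0.19, adjusted p = 0.0974).

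**Figure D3:**
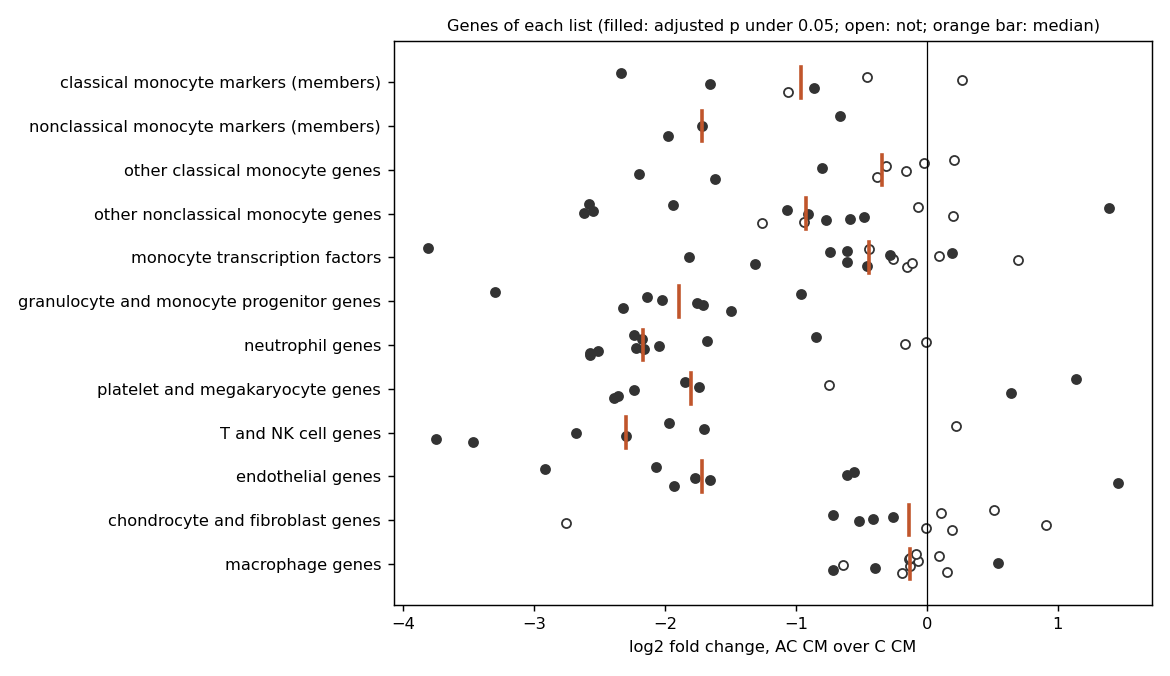
Each point is the log2 fold change, AC CM over C CM (x axis), of a gene in the list named on the y axis, filled where the adjusted p is under 0.05, with the list's median as an orange bar. The 12 lists drawn leave out the hepatocyte genes, the immediate early genes and the partners of the member proteins. Among those drawn, the medians run from -2.30 for T and NK cell genes to -0.13 for macrophage genes, with the 2 monocyte marker classes at -0.96 and -1.72.

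Likeness to Ly6c2 and to Nr4a1 was measured as the root mean square difference between log2 CPM profiles over the 6 libraries, each centred on its own mean. Among 10298 other genes with at least 5 CPM, Tnfaip2 (0.238), Stard9 (0.240) and Clec10a (0.247) were nearest to Ly6c2. Nearest to Nr4a1 were B3gnt3 (0.0223), Aldh16a1 (0.0381) and Tprgl (0.0389), which had, like Nr4a1, their highest C CM value in replicate 1. The 6 libraries form 2 groups, so that any gene that changed by a like amount comes near.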

How the data were processed

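RNA sequencing libraries of 6 mouse macrophage samples, 3 C CM and 3 AC CM as named in the titles, were analysed from a single table. The authors deposited whole-number read counts per gene without normalization, a normalized signal equal to each sample's counts over a constant per sample (not used), and their own log2 fold changes and adjusted p-values, which were only read. The submitters' processing notes name R 3.4.3, DESeq2 1.18.1, HISAT2 2.1.0 and fastp 0.17.1 without saying what each did. What counted the reads, on which build and annotation and whether by strand is not given in the sources used here. Of 52403 identifiers matched to GENCODE M21 (GRCm38), 95.2% had the same chromosome, start and end.

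Counts were filtered with filterByExpr (17863 genes left), scaled by TMM and tested with edgeR 4.0.16 (R 4.3.3, robust quasi-likelihood, group as the only term), with Benjamini-Hochberg adjustment over all genes and a threshold of 0.05. The SE is the log2 fold change over the root of its F. DESeq2 1.42.0, limma-voom (limma 3.58.1), other scalings and filters, the replicate number as a block, counts divided by 4, the 20 most counted genes left out, and libraries left out were alternatives. The procedure was tested on simulated counts drawn with the dispersion trend of the fit, which was chosen, with the criterion for passing, after simulations with other dispersions had fallen short of earlier criteria. Transcript lengths and 50-base stretches came from GENCODE M21, windows from RefSeq. Figures used Python 3.11.15 and matplotlib 3.10.9. The members, lists and alternatives were chosen with earlier results of these data known. The genes named are all members, up to 4 genes of each list with the smallest adjusted p among those called, a fixed set (Ccr2, Ly6c1, Cx3cr1, Treml4, Klf4, Cebpb, Nr4a2, Nr4a3, Irf8, Adgre1, Csf1r, S100a9, Alb) and the 3 genes most like Ly6c2 and Nr4a1. A gene was left out of the further classical list and is not reported here. Maf, Gm4117, Ly6g, Cd163, Hmox1 and Hpx were named after their values were seen. So were Lyz2, Il7r, Cd3d, Cd2, Cd3e, Cd3g, Comp, Lum, Col2a1, Dcn, Matn1 and Sox9. The ratios of counts, the motifs, the members whose windows are printed, the 50-base stretches, the transcript length and the pseudocount of 0.01 CPM for likeness were also chosen after the data were seen.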

Additional observations from a re-analysis of the deposited data

How the results depend on the processing

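Across 16 alternative settings no member changed direction. Plac8, F13a1, Cd177, Ace and Spn were called lower under each of the 16, and Nr4a1 under 15, the exception being AC CM replicates 2 and 3 left out, where AC CM 1 is assumed to vary like the C CM libraries. The count of nonclassical markers called lower was 3, and 2 under that setting, and none was called higher under any. The count of classical markers called lower was 3 and became 5 with DESeq2 (Ly6c2 and Hp in addition). It became 4 (Ly6c2 in addition) with limma-voom, with a filter of at least 1 CPM in 3 libraries and with counts divided by 4. With each replicate left out in turn it was 3 to 4. The count of classical markers called higher was 0 and became 1 (Vcan) with DESeq2, with counts divided by 4 and without C CM replicate 3; with each replicate left out in turn it was 0 to 1. The cause was not tested. Ly6c2 was called under 5 of the 16 settings, Vcan under 3 and Hp under 3: these 3 are the members whose calls depended on the settings, beside Nr4a1. Over all genes, 4741 were called, 1274 with AC CM replicates 2 and 3 left out and 3158 to 5023 with each replicate left out in turn, where fewer samples enter the fit. With the replicate number as a replicate block 4397 genes were called, with 3 classical and 3 nonclassical markers lower and 0 higher in either class. Deviations of same-numbered samples correlated at -0.116, -0.031 and -0.014, and no sample correlated best with its own number. With 3 libraries per group, such correlations cannot decide whether same-numbered samples share an origin, which the labels do not give. Low counts limit Ace, at 28 to 47 counts in AC CM libraries.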

Other observations

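Genes whose products act with those of the monocyte markers were read from a list of 23, of which 20 were tested, 4 rose, 7 fell and 9 did not pass. Pecam1, the adhesion protein that Cd177 binds, was at -1.92 (SE 0.12), from 1739, 1705 and 1994 counts after C CM to 482, 514 and 634 after AC CM. Selplg, the ligand of P-selectin, was at -0.70, and Tlr2, a receptor reported to sense versican, at -0.67. Cd44, a receptor for hyaluronan, the polymer that versican binds, rose by 0.53. Of the genes that handle haemoglobin with haptoglobin, Cd163, the receptor for the complex, was at -0.72 (SE 0.13, adjusted p = 0.00326 by edgeR) and Hmox1, which breaks down haem, at 0.27 (SE 0.06, adjusted p = 0.0141). Hpx, which binds free haem and is made by the liver, had 152, 16 and 4 counts after C CM and 219, 2088 and 3015 after AC CM, and did not pass (adjusted p = 0.118).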
